A study of Mus musculus with 6 samples.

Results

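Cytoplasmic ribosomal proteins form, with ribosomal RNA, the particle that translates the mRNAs of the nucleus. The genes described here were all rows of the deposited table whose symbol is *Rpl* or *Rps* followed by a number with at most one letter, or is *Rplp0* to *Rplp2* or *Rpsa*, so that rows named as pseudogenes and the S6 kinases were left out. This gave 81 of 46959 rows, 49 with large subunit symbols and 32 with small subunit symbols.

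The large subunit holds the peptidyl transferase centre, the exit tunnel and the stalk that recruits elongation factors. The small subunit holds the mRNA and the decoding centre, and ribosomal proteins are part of both. Their mRNAs are among the most abundant of any cell, and most begin with a run of pyrimidines at the 5′ end, the terminal oligopyrimidine or TOP motif, through which the kinase complex mTORC1 controls their translation. In blood formation they are known for Diamond-Blackfan anaemia, a red cell failure caused by loss of a single copy of one of several of these genes. Mammalian genomes also carry very many processed copies of them, made when an mRNA was reverse transcribed and inserted elsewhere, and such copies can be nearly identical to the parent.

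The libraries were made from about 2000 haematopoietic stem cells (HSCs) each, sorted from the bone marrow of mice 8 weeks old by the labels, with the HSCs of a pair of mice pooled in each replicate. There were 3 control libraries and 3 MaeaCsf1r-Cre libraries from littermates. MaeaCsf1r-Cre mice carry a floxed *Maea*, which encodes a subunit of a membrane-associated E3 ubiquitin ligase, and a *Csf1r*-iCre transgene on a C57BL/6 background. This Cre is best known for its activity in mononuclear phagocytes, and according to the study it also recombines in HSCs. The labels call the other group only control, and the study describes its controls as floxed or heterozygous littermates without giving the genotype of these 3 libraries.

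*Maea*, the targeted gene, was lower in every MaeaCsf1r-Cre library (76.9, 88.6 and 101 CPM, read counts scaled to library depth) than in any control library (108, 116 and 123 CPM), each in the order of replicates 1, 2 and 3, with a log2 fold change of -0.39 and an adjusted p of 0.967 from limma. The depth behind the CPM scaling was estimated from the steps between low CPM values. It was 32968000 to 39614000 reads in control and 44159000 to 60937000 reads in MaeaCsf1r-Cre libraries. By this estimate 3 reads, taken as the smallest signal, came to between 0.0492 and 0.0910 CPM (counting error only). The 10 HSC and progenitor markers summed to 1144 to 1835 CPM in control and 798 to 1493 CPM in MaeaCsf1r-Cre libraries, 8 of them lower by group mean. The 10 macrophage markers summed to 36.3 to 79.3 CPM in control and 6.10 to 58.2 CPM in MaeaCsf1r-Cre libraries, all 10 lower by group mean. The 8 B cell markers summed to 33.7 to 55.3 CPM in control and 13.8 to 26.8 CPM in MaeaCsf1r-Cre libraries. Of these B cell markers 3 were counted as lower by group mean, and *Cd79a*, *Ms4a1*, *Pax5* and *Igll1* were under 3 reads in every library. The 8 erythroid markers summed to 854 to 3893 CPM in control and 1645 to 4152 CPM in MaeaCsf1r-Cre libraries, highest in replicate 1 of both groups. By group mean 3 of the erythroid markers were lower. The 8 granulocyte markers summed to 76.7 to 293 CPM in control and 76.0 to 156 CPM in MaeaCsf1r-Cre libraries, 7 of them lower by group mean. The 5 T cell markers summed to 9.58 to 13.2 CPM in control and 6.69 to 9.74 CPM in MaeaCsf1r-Cre libraries. Of these T cell markers 3 were counted as lower by group mean, and *Cd3e* and *Cd3g* were under 3 reads in every library. Every MaeaCsf1r-Cre library was below every control library for 5 macrophage, 2 granulocyte and 1 B cell markers, against 6.06% of all rows tested. In the other lists this held for 0 markers. Over all rows tested by limma, 39.1% had a positive log2 fold change, MaeaCsf1r-Cre over control. The part of depth or of these other cells in the results below was not tested, and in pooled RNA fewer cells of a type and less RNA per cell cannot be told apart.

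Rows that copy a member's sequence held much of the signal, so their sequences are given first. For each member its coding sequence was matched against the transcripts of all other rows, and a row matching at 90% identity or more over at least 50% of the coding sequence was called a copy row. There were 776 such rows for 74 of the 81 members, of which 154 reached 1 CPM in at least 1 library. Most of them, 734, are annotated as processed pseudogenes, and 17 as protein-coding. *Rps18*, a protein of the small subunit head whose gene is at chr17:33951999-33956001 (minus strand, GRCm38), shows how little separates a member from its copies. Bases 127 to 186 of its coding sequence are set out here with 3 copy rows, with the bases that differ from *Rps18* in capitals.
Rps18: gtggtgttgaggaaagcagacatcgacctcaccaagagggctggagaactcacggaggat
Gm10260: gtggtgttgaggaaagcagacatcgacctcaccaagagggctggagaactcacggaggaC
Gm11361: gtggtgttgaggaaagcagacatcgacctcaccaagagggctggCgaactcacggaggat
Rps18-ps3: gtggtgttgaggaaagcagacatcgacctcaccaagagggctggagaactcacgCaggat

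*Gm10260* at chr13:97760072-97760632 and *Gm11361* at chr13:28257528-28258134, both annotated as protein-coding, differ from *Rps18* at 4 and 3 of 456 coding bases. *Rps18-ps3* at chr8:107262793-107263248, a processed pseudogene, differs at 3 of 456. *Rps6*, the S6 protein that S6 kinases phosphorylate downstream of mTORC1 and that the study followed by flow cytometry, has a copy with no difference at all. The first 60 coding bases of *Rps6* (chr4:86854660-86857412, minus strand) and of *Rps6-ps4* (chr2:75191073-75191822, minus strand) show this, and the remainder of the 747 aligned bases is the same too.
Rps6: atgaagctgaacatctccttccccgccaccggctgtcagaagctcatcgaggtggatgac
Rps6-ps4: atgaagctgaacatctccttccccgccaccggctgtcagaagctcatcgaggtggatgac

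The 5′ ends were read from the RefSeq promoter table (GRCm38.p6), which held 60 of the 81 members. A start of C followed by at least 4 further C or T, the letters searched as the TOP motif on the gene's strand, was found for 13 of those 60 genes, or 13 of their 72 annotated starts (18.1%), against 823 of 32851 starts (2.51%) in the whole table. Annotated starts are often a few bases away from those used by cells, so a start without the motif says only that the letters are not at that base. The windows below run from 15 bases before the start to 15 bases into the transcript, with the pyrimidine run in capitals, for a small subunit gene of the signalling axis, the member with the lowest log2 fold change and 2 members that were higher in MaeaCsf1r-Cre libraries by group mean.
Rps6, chr4:86857353-86857382, minus strand: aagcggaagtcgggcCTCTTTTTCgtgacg
Rps18, chr17:33955651-33955680, minus strand: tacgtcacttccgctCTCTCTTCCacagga
Rpl28, chr7:4792950-4792979, plus strand: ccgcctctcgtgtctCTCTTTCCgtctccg
Rps21, chr2:180257364-180257393, plus strand: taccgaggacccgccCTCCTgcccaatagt

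Members were compared between groups on log2(CPM + 1) by limma's moderated test over the 12955 rows that reached 1 CPM in 3 or more libraries, which held 77 of the members (46 large, 31 small). No member passed. At an adjusted p under 0.05 there were 0 of 77 members, and likewise 0 in a fit that took replicate number as a block. The background over all rows was 0.00772% in each fit, a single row that is no member. At an unadjusted p under 0.05 there was 1 of 77 members (1.30%) against 3.99% of all rows, and with the block 11 of 77 (14.3%) against 13.9% of all rows, so that neither share was far above its background.

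What the members shared was a small shift. A positive log2 fold change, MaeaCsf1r-Cre over control, was found for 64 of 77 members (83.1%), 39 of 46 large and 25 of 31 small subunit genes, beside 39.1% of all rows tested. The median log2 fold change was 0.11 for the members, with quartiles of 0.03 and 0.18, and -0.06 for all rows. It was 0.12 for large and 0.11 for small subunit genes, an order that turned when copy rows were added (0.1467 for large and 0.1538 for small). Every MaeaCsf1r-Cre library lay above every control library for 8 of 77 members (10.4%) against 2.49% of all rows, and below for 0 members against 6.06% of all rows. These counts describe the list and carry no p. The size of the shift also rested on a few libraries: without MaeaCsf1r-Cre replicate 1 the median fell to 0.06 with 46 positive members, and without control replicate 1 it was 0.21 with 71. The median of all rows was then -0.05 and -0.08, for gaps of 0.11 and 0.29. With a correction for transcript length the median was 0.09 for the members and 0.03 for all rows, so their gap narrowed from 0.17 to 0.05.

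**Figure D1:**
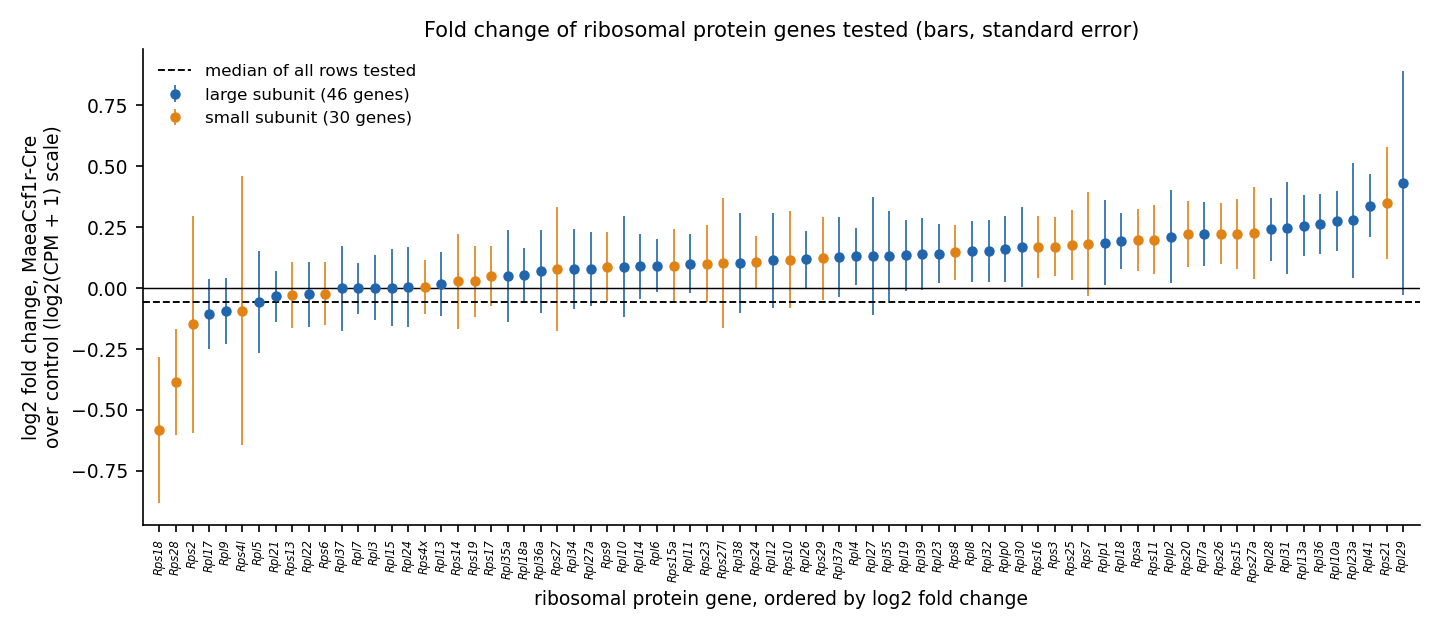
Log2 fold change of all but 1 of the 77 ribosomal protein genes tested, on the log2(CPM + 1) scale, ordered along the horizontal axis; points are large (blue) or small (orange) subunit genes, bars are standard errors and the dashed line is the median of all rows tested, -0.06. Most points lie a little above 0, from -0.58 for *Rps18* to 0.43 for *Rpl29*, with bars that reach 0 for many genes.

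Summed over the 81 members, the control libraries held 17759, 15462 and 15681 CPM and the MaeaCsf1r-Cre libraries 18640, 15908 and 17743 CPM, in the order of replicates 1, 2 and 3. Each MaeaCsf1r-Cre library was above the control library of the same number, but the groups overlapped. The means were 16301 ± 1268 and 17430 ± 1392 CPM (SD, n = 3 each), 6.93% apart and thus less than 1 SD. As a share of the CPM listed in each library this was 2.09 ± 0.141% in control and 2.22 ± 0.104% in MaeaCsf1r-Cre HSCs (SD, n = 3 each). The large subunit genes summed to 8694 ± 620 and 9453 ± 702 CPM and the small subunit genes to 7607 ± 667 and 7977 ± 752 CPM (SD, n = 3 each). The ratio of the large to the small sum was 1.13, 1.19 and 1.12 in control and 1.21, 1.24 and 1.12 in MaeaCsf1r-Cre replicates 1, 2 and 3, so the groups overlapped there too.

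**Figure D2:**
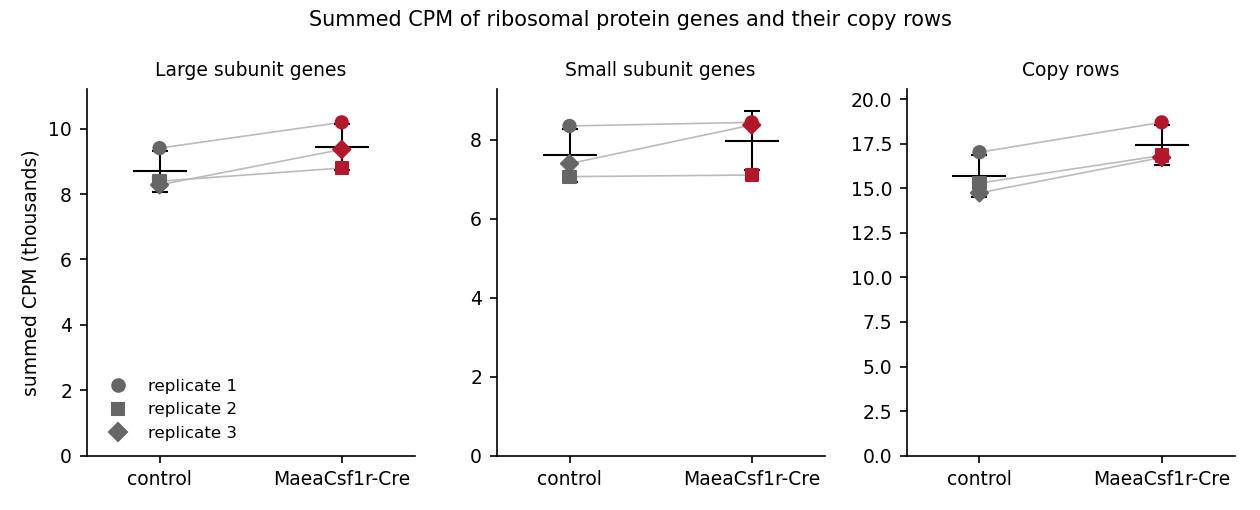
Summed CPM, in units of 1000, of large subunit genes, small subunit genes and copy rows in each control (grey) and MaeaCsf1r-Cre (red) library, with the mean and SD of each group in black and lines joining libraries of the same replicate number. In all 3 panels each MaeaCsf1r-Cre library is above the control library of its number, and the ranges of the groups overlap.

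The replicate numbers mark libraries that deviate together, and the shift was present in each pair. Higher values in the MaeaCsf1r-Cre library were found for 58, 53 and 70 of the 77 members in replicates 1, 2 and 3, beside 46.9%, 31.8% and 51.4% of all rows. In log2 units the median difference of the members was 0.09, 0.06 and 0.19, and that of all rows -0.03, -0.14 and 0.01. In 39 of 77 members (50.6%) all 3 pairs went this way, against 13.2% of all rows. In 0 members did no pair go this way, against 23.5% of all rows.

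Among the members with a high mean level per kilobase of transcript was *Rplp0*, the scaffold of the stalk (1006 CPM per kilobase). *Rplp0* was at 1394, 1269 and 1206 CPM in control and 1578, 1326 and 1423 CPM in MaeaCsf1r-Cre replicates 1, 2 and 3. Control replicate 1 lay within the range of the MaeaCsf1r-Cre libraries, and the log2 fold change was 0.16 (standard error 0.13). *Rps4x*, an X-linked protein of the small subunit body, had 739 CPM per kilobase, and *Rpl8*, a protein near the peptidyl transferase centre, had 711 CPM per kilobase. *Rps4x* varied only 1.09-fold over the libraries, at 719, 746 and 690 CPM in control and 692, 755 and 718 CPM in MaeaCsf1r-Cre libraries.

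*Rpl41*, the smallest ribosomal protein and a bridge between the subunits, had the smallest p of all members. It was at 349, 314 and 312 CPM in control and 461, 362 and 415 CPM in MaeaCsf1r-Cre replicates 1, 2 and 3. The groups did not overlap. Its log2 fold change of 0.34 had a standard error of 0.13, an unadjusted p of 0.0301 and an adjusted p of 0.967 from limma. With the replicate block the adjusted p was 0.237, still over the threshold. Copy rows held almost none of the *Rpl41* signal.

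Other members without overlap between the groups included *Rpl10a*, *Rpl13a*, *Rpl28*, *Rpl36*, *Rpl4* and *Rps26*. Of these *Rpl13a*, *Rpl28* and *Rpl36* fall outside the naming rule and were named after their values were seen. *Rpl10a* was at 41.5, 35.8 and 39.4 CPM in control and 46.3, 48.8 and 46.5 CPM in MaeaCsf1r-Cre replicates 1, 2 and 3. Its log2 fold change was 0.27 (standard error 0.12). *Rpl36* was at 99.4, 94.1 and 79.1 CPM in control and 109, 107 and 111 CPM in MaeaCsf1r-Cre libraries. *Rps26*, which lines the mRNA exit site and is a common gene in Diamond-Blackfan anaemia, was at 119, 148 and 140 CPM in control and 160, 148 and 166 CPM in MaeaCsf1r-Cre libraries, where control replicate 2 (147.66) and MaeaCsf1r-Cre replicate 2 (147.78) were almost equal. None of these genes passed the test. All these values are of own rows. Copy rows held 77.1% of the family's CPM for *Rpl10a* and 83.6% for *Rpl28*. With copy rows added the groups overlapped for *Rpl4*, at 764 CPM in control replicate 1 and 760 CPM in MaeaCsf1r-Cre replicate 3. Other families, such as that of *Rpl11*, lay without overlap only with copy rows added.

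**Figure D3:**
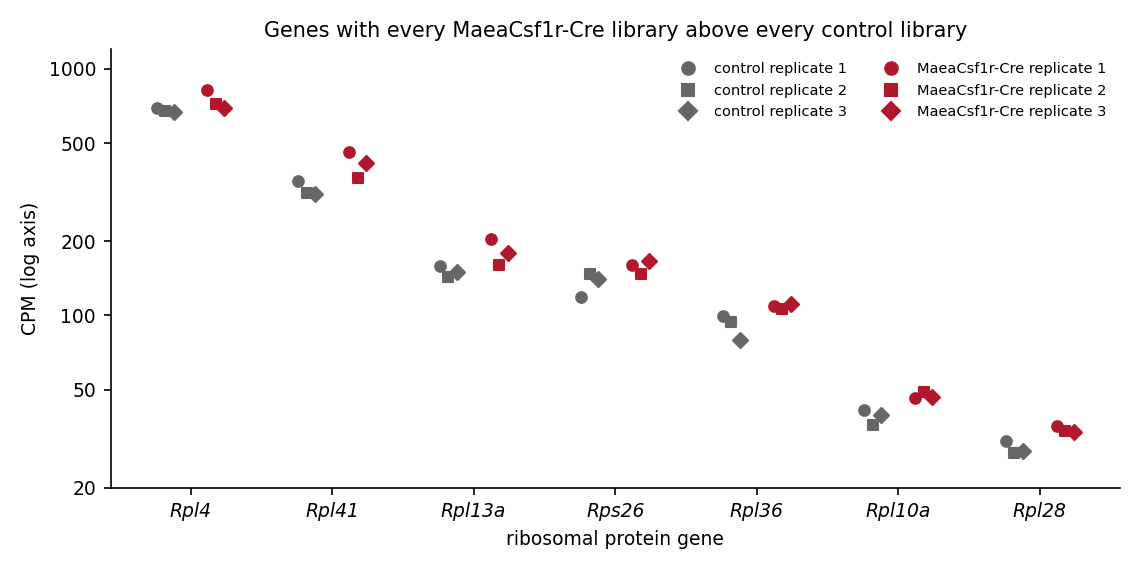
CPM, on a log axis, of 7 of the 8 ribosomal protein genes for which every MaeaCsf1r-Cre library (red) was above every control library (grey); marker shapes give replicates 1 to 3. The gaps between the groups are narrow, and *Rpl41* has the highest log2 fold change shown, 0.34.

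Of the stalk proteins *Rplp1* and *Rplp2*, which carry the flexible tails that recruit elongation factors to *Rplp0*, the level followed the replicate number. *Rplp1* was at 192, 132 and 157 CPM in control and 212, 155 and 179 CPM in MaeaCsf1r-Cre replicates 1, 2 and 3. *Rplp2* was at 159, 107 and 113 CPM in control and 175, 123 and 138 CPM in MaeaCsf1r-Cre replicates 1, 2 and 3. Replicate 1 was the highest in both groups for both genes, and the groups overlapped. The 4 stalk members all had positive log2 fold changes, with a median of 0.17 and 0 called. Of the 9 members around the exit tunnel 8 were positive (median 0.13), of the 12 tested members of the 40S head 10 (median 0.12), and of the 22 members mutated in Diamond-Blackfan anaemia 19 (median 0.11). No list had a member with an adjusted p under 0.05, and the medians lay close to that of the whole family.

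Some members were fixed for their part in marrow failure. *Rps14*, lost in the human 5q deletion syndrome, was at 571, 386 and 430 CPM in control and 549, 374 and 489 CPM in MaeaCsf1r-Cre replicates 1, 2 and 3. *Rps19*, the gene most often mutated in Diamond-Blackfan anaemia, was at 475, 396 and 364 CPM in control and 455, 367 and 435 CPM in MaeaCsf1r-Cre libraries. For each the log2 fold change was 0.03, and the spread within a group was larger than the difference between groups. *Rpl11*, which with *Rpl5* binds the smallest ribosomal RNA and can inhibit Mdm2, was at 49.7, 54.7 and 49.5 CPM in control and 57.2, 56.0 and 51.9 CPM in MaeaCsf1r-Cre libraries. Copy rows held 81.2% of the CPM of the *Rpl11* family. With them the family was at 252, 290 and 259 CPM in control and 302, 300 and 297 CPM in MaeaCsf1r-Cre libraries, without overlap. The log2 fold change of the family was 0.17 (standard error 0.11, adjusted p = 0.971 from limma). *Rpl22*, a protein with a role in lymphocyte development, differed between groups by -0.03 on the log2 scale (standard error 0.13), and *Rpl38*, known for selective translation of Hox mRNAs, by 0.10 (standard error 0.21).

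Of the paralogues of restricted expression most were listed at 0 or near it. *Rpl10l*, a testis form of *Rpl10*, was listed at 0 in every library, as was *Rps12*, which every cell uses, so a listed 0 does not show that a gene was silent. *Rpl3l*, the striated muscle form of *Rpl3*, reached at most 0.12 CPM, and *Rpl39l*, a testis form of *Rpl39*, at most 0.26 CPM, so neither was tested. *Rps27l*, a p53-inducible paralogue of *Rps27*, was well detected at 161, 81.8 and 113 CPM in control and 160, 98.0 and 117 CPM in MaeaCsf1r-Cre replicates 1, 2 and 3. *Rps4l*, annotated as a transcribed processed pseudogene, was at 3.43, 8.15 and 11.3 CPM in control and 2.28, 9.62 and 10.8 CPM in MaeaCsf1r-Cre replicates 1, 2 and 3, low in replicate 1 of both groups, for a 4.96-fold range that did not follow genotype.

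Other genes of the translation machinery gave a similar picture. Of 6 further ribosomal protein symbols outside the rule, among them *Fau* and *Gnb2l1* (the gene of Rack1), 5 were positive, with a median of 0.12. Of 20 translation and other genes known for TOP mRNAs, such as elongation factors, 17 were positive, with a median of 0.07. *Pabpc1*, the poly(A)-binding protein, had group means of 560 ± 3.10 and 558 ± 2.34 CPM and *Eef1a1*, the most abundant elongation factor, of 2139 ± 192 and 2122 ± 202 CPM (SD, n = 3 each). In both lists 0 genes had an adjusted p under 0.05.

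The copy rows together held as much CPM as the members. They summed to 15681 ± 1192 CPM in control and 17420 ± 1107 CPM in MaeaCsf1r-Cre HSCs (SD, n = 3 each), which was 49.0 ± 0.638% and 50.01 ± 1.45% of members and copies together. For 38 of the 80 members with any signal more than 50% of the family's CPM lay on copy rows. The members' values were also rarely whole reads, with reads reckoned from the estimated depth. Of those below 10000 reads 79 of 327 (24.2%) lay within 0.1 of a whole read, against 70.7% over all rows tested. If the values were spread evenly 20% would do so. Rows were not matched for level, so this comparison does not show how members differ from other rows of equal level. There were 5 copy rows of *Rpl35a* (*Gm10243*, *Rpl35a-ps2*, *Rpl35a-ps3*, *Rpl35a-ps4* and *Rpl35a-ps6*) whose annotated transcripts are identical over 333 bases, and their values were also identical, 37.1, 28.3 and 29.97 CPM in control and 38.3, 28.9 and 36.5 CPM in MaeaCsf1r-Cre replicates 1, 2 and 3.

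Several core members were low or at 0 by their own row. *Rps12*, a protein of the small subunit head, was listed at 0 in all 6 libraries, while *Rps12-ps3*, identical to it over the coding sequence, was at 135, 74.9 and 89.6 CPM in control and 132, 85.5 and 116 CPM in MaeaCsf1r-Cre replicates 1, 2 and 3. *Rps6* was at 192, 198 and 173 CPM in control and 211, 167 and 178 CPM in MaeaCsf1r-Cre libraries, and its copy *Rps6-ps4* shown above at 958, 1116 and 1004 CPM in control and 1084, 1061 and 1057 CPM in MaeaCsf1r-Cre libraries. Neither row separated the groups. For *Rps6* with its copies, the group means were 1215 ± 88.7 and 1255 ± 37.0 CPM (SD, n = 3 each; log2 fold change 0.05, standard error 0.12). By flow cytometry the study found less total S6 protein in MaeaCsf1r-Cre HSCs. Phosphorylated S6 was reduced more mildly, so the ratio of phosphorylated to total S6 was higher. Those are measures of protein, and the values here are of RNA. Copies held 98.4% of the family's CPM for *Rpl10*, 98.2% for *Rps27* and 97.4% for *Rpl5*. The own row of *Rpl5* had a mean level of 8.20 CPM per kilobase, which is no measure of its family.

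*Rps18* was the member with the lowest log2 fold change, -0.58 (standard error 0.30). It was at 495, 375 and 384 CPM in control and 238, 193 and 461 CPM in MaeaCsf1r-Cre replicates 1, 2 and 3. MaeaCsf1r-Cre replicates 1 and 2 were low and replicate 3 was within the control range. In those same libraries the copies *Gm10260* and *Gm11361* were high and *Rps18-ps3* was low. *Gm10260* was at 169 and 152 CPM in MaeaCsf1r-Cre replicates 1 and 2 and under 3 reads in the other 4 libraries. *Gm11361* was at 95.3, 71.3 and 75.3 CPM in control and 151, 120 and 91.8 CPM in MaeaCsf1r-Cre libraries, and *Rps18-ps3* at 48.1, 37.3 and 41.7 CPM in control and 2.56, 1.63 and 52.7 CPM in MaeaCsf1r-Cre libraries. With all copies added, the family was at 639, 484 and 501 CPM in control and 561, 467 and 605 CPM in MaeaCsf1r-Cre replicates 1, 2 and 3, and the log2 fold change was 0.01 (standard error 0.16).

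*Rps28*, a protein of the mRNA exit site that lies close by at chr17:33819027-33824562, had the next lowest log2 fold change, -0.39 (standard error 0.22). It was at 146, 121 and 127 CPM in control and 88.8, 78.9 and 143 CPM in MaeaCsf1r-Cre replicates 1, 2 and 3, low in the same 2 libraries. Its copy *Gm10263* at chr13:73317844-73318143, which differs at 1 of 207 coding bases, was at 28.2, 25.996 and 25.1 CPM in control and 77.1, 74.5 and 32.7 CPM in MaeaCsf1r-Cre libraries. Their sequences around that base (coding bases 104 to 163, the differing base in capitals) are as follows.
Rps28: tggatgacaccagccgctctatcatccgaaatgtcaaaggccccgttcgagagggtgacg
Gm10263: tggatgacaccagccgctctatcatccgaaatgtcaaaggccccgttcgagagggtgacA

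With all copies, the *Rps28* family was at 240, 206 and 215 CPM in control and 241, 230 and 256 CPM in MaeaCsf1r-Cre libraries, for a log2 fold change of 0.14 (standard error 0.11). The family lay a little higher in MaeaCsf1r-Cre libraries by group mean, where the member's own row lay lower.

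*Rps2*, at the mRNA entry side of the small subunit and also on chromosome 17 (chr17:24718116-24721929), ranged 3.63-fold between libraries. It was at 331, 280 and 550 CPM in control and 346, 172 and 627 CPM in MaeaCsf1r-Cre replicates 1, 2 and 3, high in replicate 3 of both groups. Its copy *Rps2-ps10* was at 270, 224 and 148 CPM in control and 635, 617 and 173 CPM in MaeaCsf1r-Cre libraries, high in MaeaCsf1r-Cre replicates 1 and 2 and lowest in replicate 3 of each group. The family with all copies was at 646, 545 and 727 CPM in control and 1002, 809 and 833 CPM in MaeaCsf1r-Cre libraries, without overlap. The log2 fold change was -0.15 (standard error 0.45) for the member's row and 0.47 (standard error 0.15, adjusted p = 0.971 from limma) for the family, so the direction depended on which rows were counted.

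*Rpl29*, a large subunit protein on chromosome 9, had the highest log2 fold change of all members, 0.43, with a standard error of 0.46. It was at 136, 65.8 and 242 CPM in control and 146, 134 and 274 CPM in MaeaCsf1r-Cre replicates 1, 2 and 3, again high in replicate 3 of both groups. The copy rows *Gm13841* and *Gm8210*, which held equal values, were each at 48.2, 66.5 and 0.134 CPM in control and 48.6, 45.4 and 0.206 CPM in MaeaCsf1r-Cre libraries, nearly absent in replicate 3 of both groups. They differ from *Rpl29* at 3 of 480 coding bases, 1 of them, in capitals, within coding bases 398 to 457.
Rpl29: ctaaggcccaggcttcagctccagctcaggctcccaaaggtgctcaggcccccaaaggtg
Gm13841: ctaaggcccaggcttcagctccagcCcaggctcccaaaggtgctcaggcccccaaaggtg

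With all copies the log2 fold change of the *Rpl29* family was 0.20 (standard error 0.16). In each of these 4 families a copy row moved against the own row between some libraries, but not throughout. *Rps18-ps3* moved with *Rps18*, and both *Rps2* and *Rps2-ps10* were higher in MaeaCsf1r-Cre than in control replicate 1. Of the 7 members on chromosome 17 there were 3 among the 4, *Rps18*, *Rps28* and *Rps2*. What set these values was not tested.

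**Figure D4:**
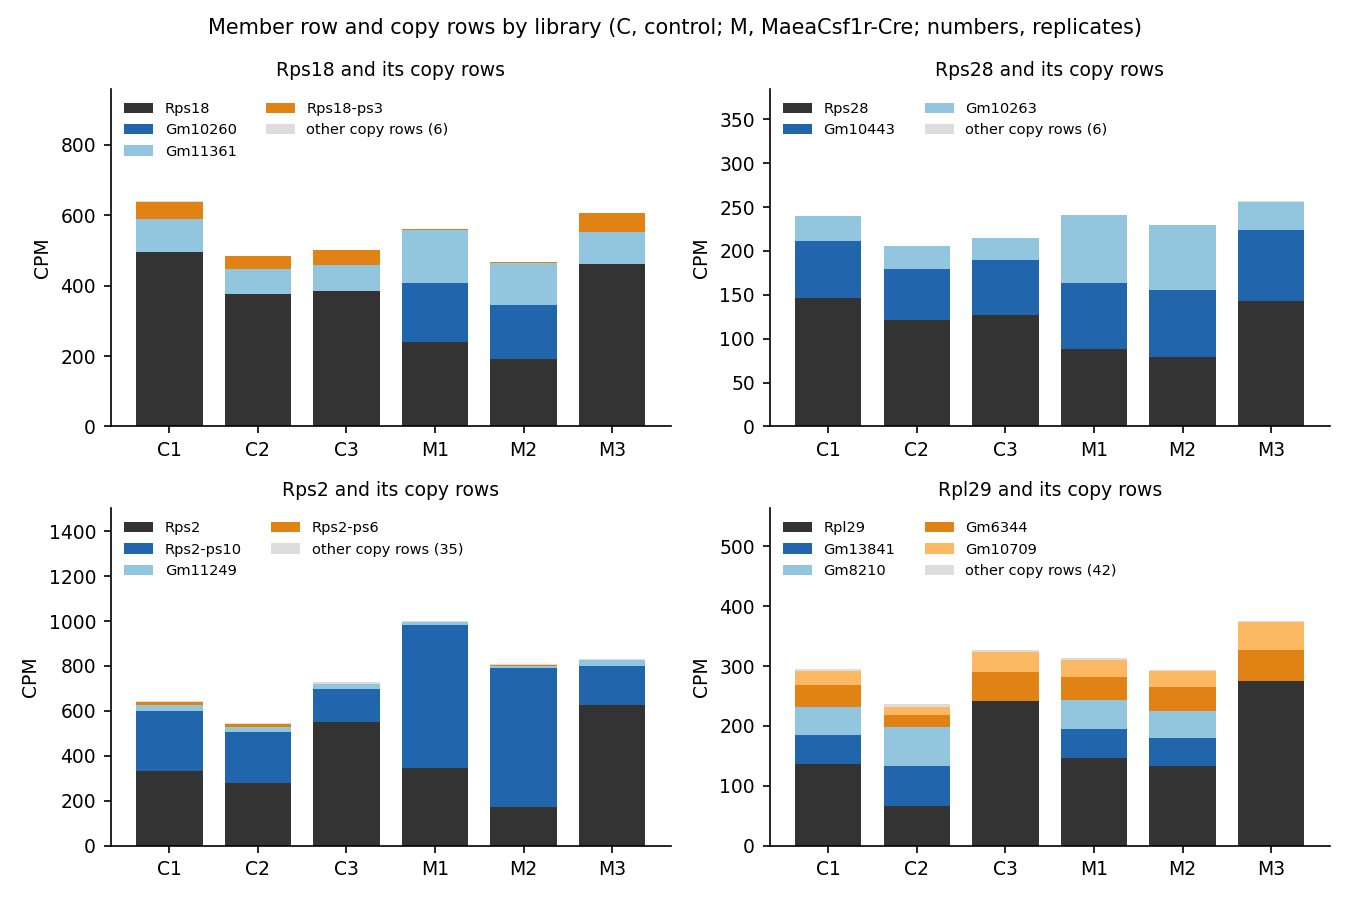
Stacked CPM of the row of *Rps18*, *Rps28*, *Rps2* and *Rpl29* (black) and of its copy rows (colours; grey, copy rows that never reach 10 CPM) in control (C) and MaeaCsf1r-Cre (M) replicates 1 to 3. *Gm10260* is at 3 reads or more only in M1 and M2, at 169 and 152 CPM, while the total of the *Rps18* family changes less than its own row.

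Adding copy rows to every member narrowed the range of fold changes and raised their centre. Of 78 members then tested 75 were positive, from -0.09 for *Rps4l* to 0.47 for *Rps2*, with a median of 0.15, and 0 had an adjusted p under 0.05. The share of the listed CPM became 4.10 ± 0.276% in control and 4.45 ± 0.177% in MaeaCsf1r-Cre HSCs (SD, n = 3 each). Among the 11 tested members with under 5% of their family on copy rows, a list made after the values were seen, 9 were positive with a median of 0.15, and among the other 66 there were 55, with a median of 0.11.

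**Figure D5:**
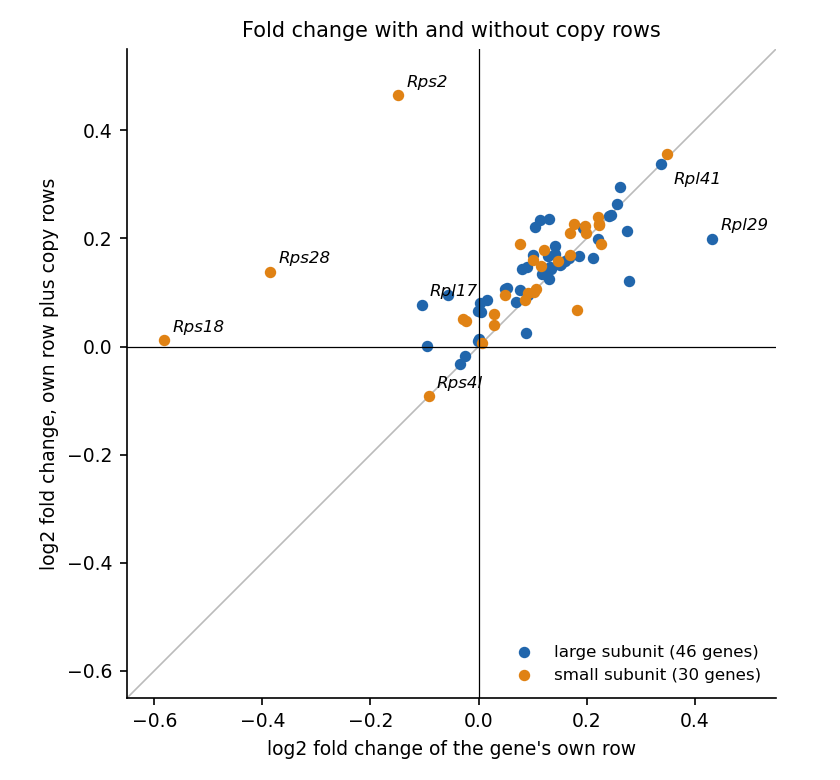
Log2 fold change of members with their copy rows added (vertical axis) against that of their own row (horizontal axis), both on the log2(CPM + 1) scale, for large (blue) and small (orange) subunit genes; the grey line marks equal values. Most points lie near the line between 0 and 0.4, and *Rps18* (-0.58 to 0.01), *Rps28* (-0.39 to 0.14) and *Rps2* (-0.15 to 0.47) stand far above it.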

How the data were processed

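HSC libraries were prepared by the authors with SMART-Seq v4 and Nextera XT kits, which do not mark strand, and sequenced as single-end reads. Reads were aligned to mm10 with STAR 2.5.3a and quantified to Ensembl release 83 in Partek Flow, and Trim Galore is named in the submitters' processing notes. The authors deposited a table of CPM with a column for each library, in which 0.0001 had been added to each value. How reads matching several genes were shared was not given in the sources used here. Listed rows hold 75.2 to 80.2% of each library's CPM.

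Groups were taken from the sample titles. Rows reaching 1 CPM in 3 or more libraries were tested on log2(CPM + 1), a scale that understates changes of low genes, with limma 3.58.1 (R 4.3.3), mean-variance trend, two-sided, Benjamini-Hochberg adjusted over 12955 rows, threshold 0.05. Since the values are not counts, no count test was used. Replicates are pools of mice, and p-values measure the spread between 3 such pools per group. Libraries with the same number deviated together. Pearson's r over rows between their deviations from the mean of the group was 0.627, 0.523 and 0.397 (rows are not independent). For other numbers it was -0.459 to -0.0538, but deviations cancel out within a group, so these negative values are no separate evidence. Fits with the replicate block are therefore given where they change a count. Symbols were matched to GENCODE release M21 (44027 rows, all 81 members), a later annotation than the authors'. Copy rows were found with BLAST+ 2.17.0; a protein-coding copy such as *Wdr89*, which overlaps a copy of *Rplp2*, brings its own reads.

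The members and lists were chosen with earlier results of these data known. Most genes named singly were those of a rule: the largest and smallest log2 fold changes, the highest means and the smallest p in each subunit, and a fixed list of *Rps6*, stalk, marrow failure and paralogue genes. *Rpl13a*, *Rpl28*, *Rpl36*, *Rps12*, *Rpl35a*, the copy rows and genes that are no members were named after values were seen. Values of some genes are not reported here. The fit was also run on simulated data with independent noise of equal spread in every row. Those data lacked the shared deviations of libraries with the same number, so they do not test the fit under such deviations. Tables were handled with pandas 2.3.3 and numpy 2.4.6 in Python 3.11.15, and plots were made with matplotlib 3.10.9. Alternatives were 0.1 as pseudocount, 10 CPM as filter or none, 3 rescalings, no trend, the replicate block, correction for transcript length alone and with the block, addition of rows named as pseudogenes of a member, and each library left out; addition of copy rows by sequence was chosen after seeing the data.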

Additional observations from a re-analysis of the deposited data

How the results depend on the processing

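The count of members called was 0 under every alternative run, with a smallest adjusted p of 0.2245, and the median of the members was positive under each. It lay between 0.06 (without MaeaCsf1r-Cre replicate 1) and 0.21 (without control replicate 1), and was 0.19 without MaeaCsf1r-Cre replicate 2 and 0.18 with rescaling by median ratios, where 71 members were positive. For the large subunit genes the leave-one-out range was 0.06 to 0.22 and for the small subunit genes 0.04 to 0.20. With correction for transcript length, over 12449 rows, the median was 0.09 with 59 positive members and that of all rows 0.03, so the gap between them was 0.05 instead of 0.17. With quantile normalization the gap was 0.11. The replicate block changed no call of a member. The difference in the share of the listed CPM, MaeaCsf1r-Cre minus control, moved from 0.134 to 0.347 percentage points with sequence copies added, a sum over more rows, and lay between 0.0841 (without MaeaCsf1r-Cre replicate 1) and 0.215 (without control replicate 1) when a library was left out.

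Over the 35 named members tested, 563 of 628 values under alternatives kept their sign and 65 did not, and 16 members kept it throughout. Against a reported value of the other sign, log2 fold changes were 0.0767 for *Rpl17*, 0.0018 for *Rpl9*, 0.49 for *Rps2* and 0.048 for *Rps6* with rows named as pseudogenes added. They were 0.0775 for *Rpl17*, 0.10 for *Rpl5*, 0.0017 for *Rpl9*, 0.0116 for *Rps18*, 0.47 for *Rps2*, 0.14 for *Rps28* and 0.048 for *Rps6* with all copy rows added, 0.0366 for *Rpl22*, 0.0026 for *Rpl5* and 0.0386 for *Rps6* with median ratios, and -0.0111 for *Rpl3*, 0.032 for *Rpl5*, 0.0807 for *Rps4l* and -0.0384 for *Rps4x* with quantile normalization. Rescaling to the rows outside the family gave -0.0022 for *Rpl3*. The length correction gave 0.0434 for *Rpl22*, 0.0121 for *Rpl5*, -0.0056 for *Rps14*, -0.007 for *Rps19*, -0.0405 for *Rps27* and -0.0054 for *Rps4x*, with or without the replicate block. With each library left out in turn the values ran from -0.0205 to 0.23 for *Rpl10*, -0.17 to 0.0042 for *Rpl17*, -0.10 to 0.0906 for *Rpl22*, -0.0513 to 0.88 for *Rpl29*, -0.10 to 0.0902 for *Rpl3*, -0.0515 to 0.26 for *Rpl38*, -0.25 to 0.0633 for *Rpl5*, -0.0917 to 0.19 for *Rps14*, -0.0562 to 0.14 for *Rps19*, -0.60 to 0.33 for *Rps2*, -0.15 to 0.24 for *Rps27*, -0.14 to 0.35 for *Rps27l*, -0.51 to 0.50 for *Rps4l*, -0.0261 to 0.0357 for *Rps4x*, -0.12 to 0.0491 for *Rps6* and -0.0191 to 0.18 for *Rps9*. Apart from the added rows, the cause was not tested. With 3 pools per group, standard errors combine the spread within groups with limma's estimate over all rows.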

Other observations

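A few genes that code for full-length ribosomal proteins under other symbols were outside the naming rule. *Rps3a1*, the mouse gene of the small subunit protein RPS3A, was at 625, 629 and 555 CPM in control and 649, 596 and 600 CPM in MaeaCsf1r-Cre replicates 1, 2 and 3, and *Rps3a2* at 200.2, 206 and 180 CPM in control and 223, 214 and 197 CPM in MaeaCsf1r-Cre libraries. *Rps27rt*, a protein-coding copy of *Rps27* at chr9:114982366-114982739, was at 197, 152 and 159 CPM in control and 189, 184 and 204 CPM in MaeaCsf1r-Cre libraries, while *Rps27* itself was between 2.01 and 4.14 CPM. In each of these rows the groups overlapped.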
